A study of Danio rerio with 12 samples.

Results

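The MARCKS family genes and gap43 encode acidic, membrane-bound proteins that are substrates of protein kinase C, and their transcripts were measured in retinas of adult zebrafish of the EK strain. The members were the genes whose symbol begins with marcks, together with gap43. Of the 5 named members, 4 had a row among the 32674 genes of the deposited table: marcksl1a (ENSDARG00000039034), marcksl1b (ENSDARG00000035715), marcksb (ENSDARG00000008803) and marcksa (ENSDARG00000004049). No row was matched to gap43 by symbol or identifier, and gap43 is not analysed here. In the RefSeq gene table each of the names marcksl1a and marcksl1b is also listed as a synonym of the other, so the identifiers above fix which gene is meant.

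MARCKS, the myristoylated alanine-rich C-kinase substrate, sits at the inner face of the plasma membrane through a lipid anchor and a short basic stretch called the effector domain. That stretch binds the membrane lipid PIP2, calmodulin and actin filaments, and phosphorylation by protein kinase C or binding of calmodulin releases it from the membrane. MARCKS-like 1 is its smaller relative, and zebrafish have an a and a b copy of each. GAP-43, a growth cone protein, belongs to the same functional group and is known in fish for its rise in retinal ganglion cells that regrow their axons.

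The MeHg lineage descended from eggs kept for 24 h in 0.03 µM methylmercury (MeHg) with ethanol as the vehicle, and the control lineage from eggs kept in 0 µM MeHg with the same vehicle. The exposed eggs are counted as F1, the fish studied were F3, and neither F2 nor F3 fish met added MeHg. Each lineage has 6 samples in the labels, of which 6 MeHg libraries (numbers 2 to 7) and 5 control libraries (numbers 3, 4, 5, 7 and 8) had a named column and were used. The labels call the samples biological replicates and do not say how many fish gave each, nor how many exposed founders stand behind a lineage, so p-values measure the spread among these samples.

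Assigned fragments numbered 4354472 to 6749621 per MeHg library and 2838157 to 5663043 per control library. All 14 retina markers with a row, out of 17 listed, were at 1 FPKM or more in every library. Their summed levels were 10041 to 12731 FPKM in the MeHg libraries and 3831 to 10458 FPKM in the control libraries. Of these 14 markers 1 was called higher and 1 lower in the MeHg lineage (limma, Benjamini-Hochberg adjusted p under 0.05). Over all genes tested 5.47% were called higher and 3.5% lower. FPKM is a number of fragments scaled for transcript length and library size. Control libraries 5 and 7 stood apart: 13 oocyte markers summed to 1395 and 2702 FPKM there, against 0.470 to 3.31 FPKM in the MeHg libraries and 0.324 to 5.26 FPKM in control libraries 3, 4 and 8. A further listed marker, sybu, was left out of that sum because it was high in all libraries, at 52.1 to 80.4 FPKM in the MeHg lineage and 123 to 262 FPKM in the control lineage. Summed levels of the 10 pigment epithelium markers were 1040 to 1533 FPKM in the MeHg lineage. In the control lineage they were 2760 to 16841 FPKM, where most of it was rbp4l. The single markers were split, with 2 of 10 called higher and 2 lower in the MeHg lineage at the same limma threshold. These are larger shares than the 5.47% and 3.5% over all genes. The part of pigment epithelium in the results below was not tested. Muller glia markers summed to 1279 to 1528 FPKM in the MeHg libraries and 1220 to 2360.5 FPKM in the control libraries. Of 8 tested, 1 was called higher and 2 lower. Microglia and macrophage markers summed to 165 to 1086 FPKM and 232 to 503 FPKM in the same order, with none of 14 called. Vascular endothelium markers summed to 37.2 to 88.9 FPKM and 25.7 to 40.9 FPKM, with 1 of 6 called, higher. The part of these cell types was not tested either. In whole tissue, fewer cells of a type and less RNA per cell cannot be told apart.

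The marcksl1 transcripts were the abundant members of the family and were higher in the MeHg lineage, marcksl1a by about 4-fold and marcksl1b by about 2.4-fold, while marcksb and marcksa overlapped between the lineages. The members were chosen by symbol, but with the lineage differences in FPKM of these same libraries already known. Those differences are therefore given as a description, with no p-value, and nothing is supported with them.

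In the MeHg libraries marcksl1a ranged from 195 to 293 FPKM with a median of 256 FPKM, against 56.7, 55.8, 60.8, 51.5 and 81.5 FPKM in control libraries 3, 4, 5, 7 and 8. The groups did not overlap, and the lowest MeHg library was 2.39 times the highest control library. The mean was 250 ± 32.6 FPKM in the MeHg lineage (SD, n = 6) and 61.3 ± 11.8 FPKM in the control lineage (SD, n = 5). On the log2(FPKM + 1) scale the difference, MeHg minus control, was 2.02 ± 0.15 (moderated SE from the fit over all genes). Of the 20320 genes tested 0.497% had a larger difference in that direction.

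The paralog marcksl1b, the most abundant member in every library, ranged from 520 to 795 FPKM in the MeHg libraries with a median of 677 FPKM. It was at 253, 333, 263, 201 and 358 FPKM in control libraries 3, 4, 5, 7 and 8. These groups did not overlap either, but the gap was narrower, with the lowest MeHg library at 1.45 times the highest control library. Means were 672 ± 93.2 FPKM in the MeHg lineage (SD, n = 6) and 282 ± 63.4 FPKM in the control lineage (SD, n = 5), a log2 difference of 1.27 ± 0.18 (moderated SE). A larger difference in that direction was found for 2.05% of the genes tested.

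The level of marcksb, which encodes MARCKS itself, varied little among the MeHg libraries and widely among the control libraries. It ranged from 24.2 to 39.8 FPKM in the MeHg libraries with a median of 33.8 FPKM, against 48.2, 16.4, 57.0, 98.1 and 12.2 FPKM in control libraries 3, 4, 5, 7 and 8. The MeHg values all lay inside the range of the control values. The log2 difference was -0.13 ± 0.44 (moderated SE), and its direction rested on the choice of control libraries, as described below.

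The other MARCKS copy, marcksa, was the scarce member. It ranged from 0.836 to 2.94 FPKM in the MeHg libraries with a median of 2.08 FPKM, against 2.33, 1.33, 1.09, 1.18 and 2.49 FPKM in control libraries 3, 4, 5, 7 and 8. The groups overlapped over most of their range, with a log2 difference of 0.16 ± 0.24 (moderated SE). Only 6 to 29 fragments per MeHg library and 6 to 10 per control library stood behind these values. Exact Poisson limits at 95% for counting error were 0.307 to 1.82 FPKM in the lowest MeHg library and 1.97 to 4.22 FPKM in the highest.

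All 4 measured members passed the filter of a mean of at least 0.5 FPKM, and 2 of them, marcksl1a and marcksl1b, were on the higher side of the threshold used for all genes (limma, Benjamini-Hochberg adjusted p under 0.05), which is no test of them. Over all genes tested 5.47% were called higher and 3.5% lower, 8.98% in all, and 4.8% had every MeHg value above every control value, as both marcksl1 genes did, while 2.72% had every MeHg value below (7.52% in either direction). Since the members were chosen with this contrast known, nothing is read from these counts.

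**Figure D1:**
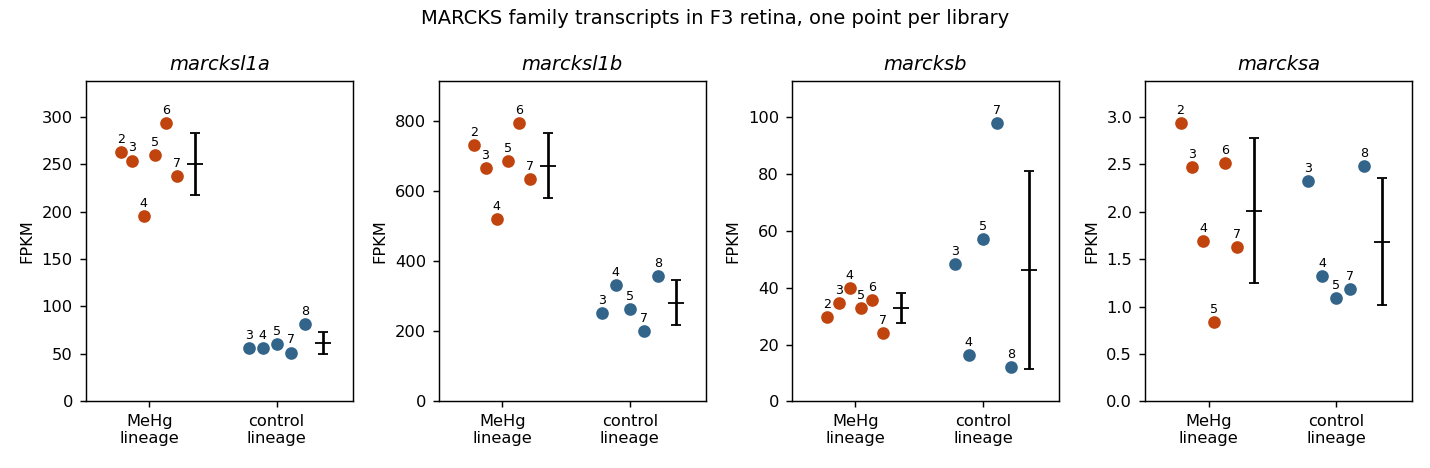
FPKM (linear axes from 0) of the 4 measured MARCKS family genes in each library, MeHg lineage left and control lineage right, with library numbers beside the points and the mean ± SD at the right of each group. The MeHg and control points separate for marcksl1a and marcksl1b and overlap for marcksb and marcksa, and control library 7 stands highest for marcksb at 98.1 FPKM.

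FPKM is a value per transcript length, so levels can be set side by side between members. In all 6 MeHg libraries the order was marcksl1b, marcksl1a, marcksb, marcksa, and no range of levels touched that of the next member. The same order held in 4 of the 5 control libraries. In control library 7 marcksb, at 98.1 FPKM, was above marcksl1a, at 51.5 FPKM. In control library 5 marcksl1a and marcksb, at 60.8 and 57.0 FPKM, did not differ beyond counting error. Their 95% limits were 54.5 to 67.6 FPKM and 51.1 to 63.4 FPKM. In control library 3 the limits of the pair overlapped as well, at 50.4 to 63.6 FPKM for marcksl1a and 40.2 to 57.3 FPKM for marcksb. In terms of all tested genes, marcksl1b was above 99.2% to 99.7% of them in the MeHg libraries and above 98.1% to 98.7% in the control libraries. For marcksl1a these shares were 98.0% to 98.5% in the MeHg libraries and 91.8% to 95.1% in the control libraries.

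The members together amounted to 957 ± 125 FPKM in the MeHg lineage (SD, n = 6) and 391 ± 41.1 FPKM in the control lineage (SD, n = 5). The shares of the marcksl1 genes in that sum were nearly constant among the MeHg libraries, while those of the scarcer members varied more. The share of marcksl1a in it was 26.1 ± 0.386% in the MeHg lineage (SD, n = 6) and 15.6 ± 1.59% in the control lineage (SD, n = 5). The share of marcksl1b averaged 70.2% in the MeHg lineage, with a range of 68.7% to 71.2%, and 71.4% in the control lineage, with a range of 57.2% to 81.9%. That of marcksb was 2.69% to 5.27% in the MeHg libraries and 2.69% to 27.9% in the control libraries. The share of marcksa was 0.0854% to 0.286% in the MeHg libraries and 0.285% to 0.647% in the control libraries. Among the control libraries marcksb held 13.4%, 14.9% and 27.9% of the sum in libraries 3, 5 and 7. It held 4.02% and 2.69% in libraries 4 and 8. The share in library 3 went with a high FPKM per fragment, described below.

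The proportion of the MARCKS-like paralogs to each other was higher in every MeHg library than in any control library. The FPKM ratio of marcksl1a to marcksl1b was 0.359, 0.380, 0.375, 0.378, 0.369 and 0.374 in MeHg libraries 2 to 7, against 0.224, 0.167, 0.231, 0.256 and 0.228 in control libraries 3, 4, 5, 7 and 8. Control library 4 was the lowest of all. The mean was 0.373 ± 0.00745 in the MeHg lineage (SD, n = 6) and 0.221 ± 0.0325 in the control lineage (SD, n = 5).

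The coefficient of variation of the ratio was 2.0% in the MeHg lineage, although the levels themselves varied by 13.04% for marcksl1a and 13.9% for marcksl1b. Fragment numbers of the pair give a counting error of 2.16% to 2.90% for the ratio in single MeHg libraries, so the spread among them was no wider than counting error. Without MeHg library 2 it was 1.11%. In the control lineage the ratio varied by 14.7%, with a counting error of 4.71% to 6.55% in single libraries. That wider spread rested on control library 4, the lowest value. Without it the ratio of the other 4 varied by 6.11%, a value inside that range of counting errors. The order of the 6 MeHg libraries was the same for both paralogs, with library 6 highest, then 2, 5, 3 and 7, and library 4 lowest. All genes of a library share its scaling, and 0.492% of the tested genes other than marcksl1a had that order. Among the control libraries both paralogs were highest in library 8 and lowest in library 7, and library 4 was second highest for marcksl1b but second lowest for marcksl1a.

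**Figure D2:**
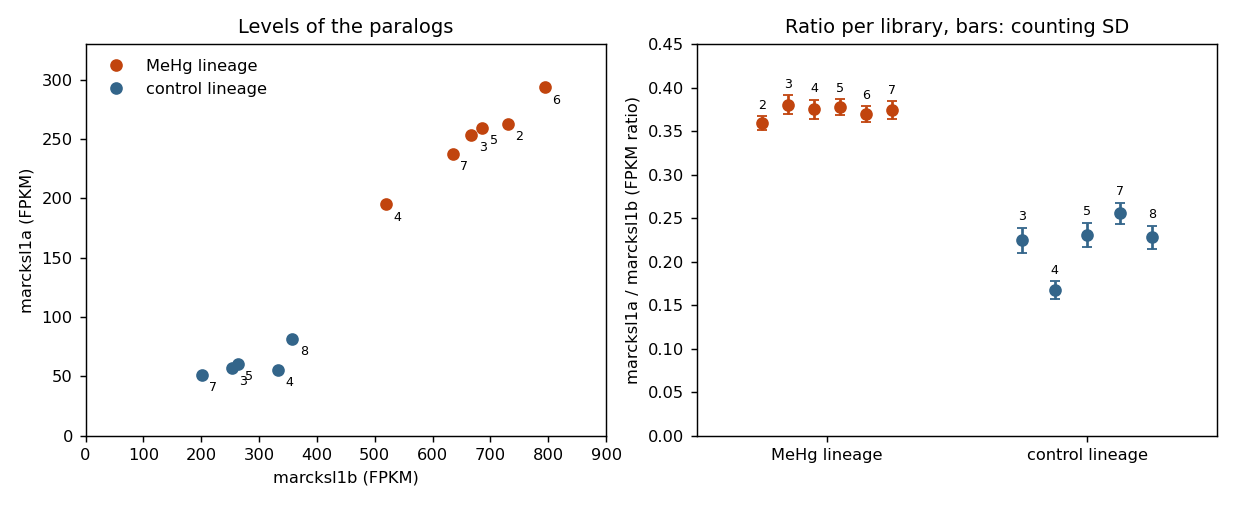
Left, marcksl1a against marcksl1b in FPKM (linear axes from 0), one point per library, numbered by library. Right, the FPKM ratio of the pair per library with the SD expected from counting alone, where the 6 MeHg libraries sit between 0.359 and 0.380 and the 5 control libraries between 0.167 and 0.256.

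Among the control libraries marcksb was highest where oocyte markers were high. Control libraries 5 and 7, which carried the oocyte markers, had the highest marcksb levels in the companion table of scaled fragment numbers, a measure that leaves transcript length out. There marcksb was at 242 to 328 in the MeHg libraries, at 523 and 919 in control libraries 5 and 7, and at 216, 164 and 122 in control libraries 3, 4 and 8. The MeHg values thus lay below both oocyte-bearing control libraries and above the other 3. All 13 oocyte markers in the sum were at 1 FPKM or more in control libraries 5 and 7, and at most 1 was in any other library. Of these, org, zp2.2 and zp2.5 were at 0 in every MeHg library. The part of oocyte RNA in the marcksb values was not tested.

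With control libraries 5 and 7 left out, the log2 difference of marcksb was 0.58 ± 0.35 (moderated SE) in place of -0.13. It was 0.23 without control library 7 alone, 0.04 without control library 5 alone and -0.49 without control library 8. The marcksl1 differences changed little without libraries 5 and 7, to 1.95 for marcksl1a and 1.097 for marcksl1b. That of marcksa was then -0.04.

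Control library 3 differed in another respect. Its marcksb level was 48.2 FPKM, but its scaled fragment number was 216, below every MeHg library. Its FPKM per scaled fragment was 2.05 times the median of that quotient over all libraries, against 0.918 to 1.32 times in the MeHg libraries and 0.916 to 1 times in the other control libraries. The quotient follows the transcript lengths that the authors' software assigned to a gene's fragments in a library. For marcksl1a and marcksl1b the highest quotient was 1.01 times the lowest. Among 11449 genes with a mean of at least 50 scaled fragments the median of that span was 1.03, and 3.07% of them spanned at least 2-fold, as marcksb did with 2.24.

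**Figure D3:**
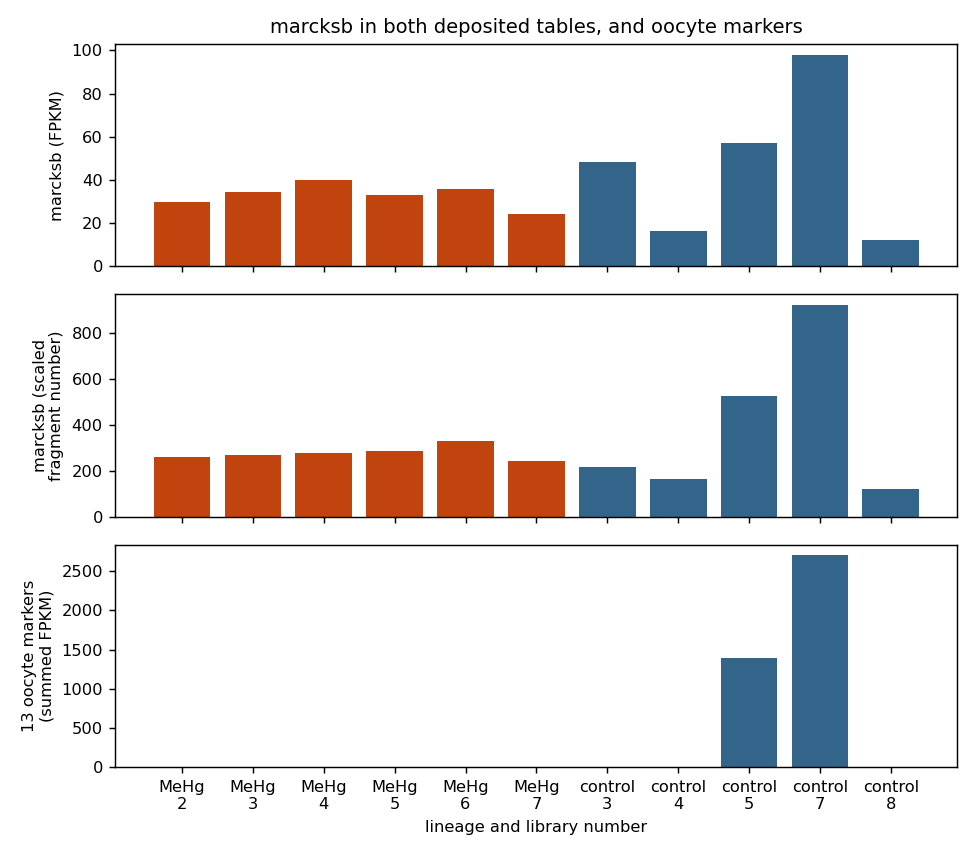
Level of marcksb per library in FPKM and in scaled fragment number, above the summed FPKM of 13 oocyte markers (linear axes from 0; MeHg libraries left in each panel, control libraries right). Control libraries 5 and 7 are highest in all 3 panels, and control library 3 is high in FPKM (48.2) but not in scaled fragment number (216).

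The genes whose profile was most like that of marcksl1a were taken from all tested genes with an assigned symbol, by the root mean square difference between profiles of log2(FPKM + 1), each centred on its own mean over the 11 libraries. Since marcksl1a differed between the lineages, genes near it differ likewise by construction, and their levels are a description. The nearest was cd82a, a tetraspanin gene, at 89.3 ± 11.6 FPKM in the MeHg lineage (SD, n = 6) and 21.9 ± 4.79 FPKM in the control lineage (SD, n = 5), with a root mean square difference of 0.12. Next came impdh1b, an IMP dehydrogenase of guanine nucleotide synthesis, at 28.2 to 46.4 FPKM in MeHg libraries and 8.46 to 12.8 FPKM in control libraries (0.19). The short-chain dehydrogenase gene dhrs2 was at 20.6 to 36.5 FPKM in MeHg libraries and 4.60 to 6.91 FPKM in control libraries (0.20).

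The gene cacng5a, of the calcium channel gamma subunit family, was at 101 to 156 FPKM in MeHg libraries and 20.2 to 42.3 FPKM in control libraries (0.21). The cryptochrome gene cry2b was at 286 to 387 FPKM in MeHg libraries and 61.8 to 97.1 FPKM in control libraries (0.21). The paralog marcksl1b was number 65 in this order, at 0.40, with a smaller lineage difference, and marcksa and marcksb lay far from it at 0.98 and 1.39.

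**Figure D4:**
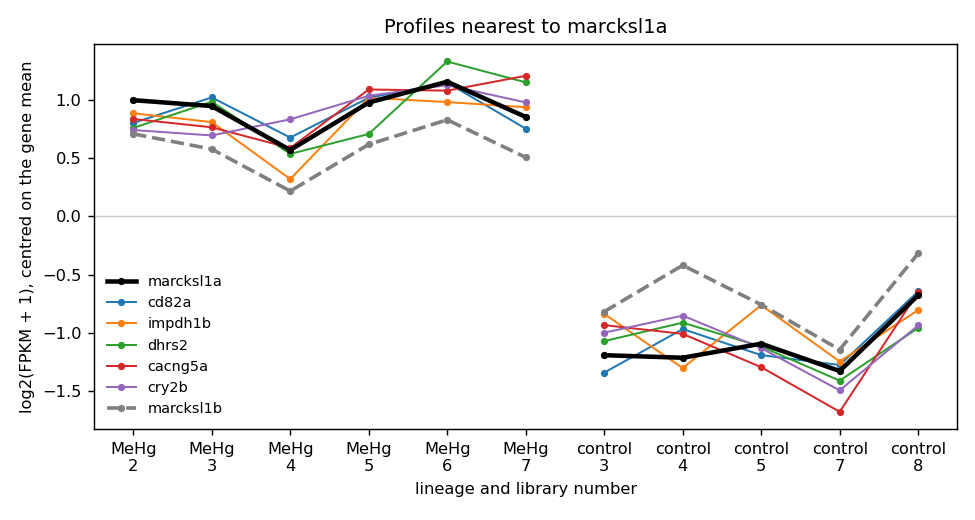
Profiles of log2(FPKM + 1), centred on each gene's mean, over the 6 MeHg libraries (left) and the 5 control libraries (right) for marcksl1a, its 5 nearest genes and marcksl1b. Lines only join the values of one gene, and marcksl1b (dashed) has a smaller distance between the lineages than marcksl1a.

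Genes were counted in 7 lists, linked to MARCKS proteins and GAP-43 by known biochemistry or, for axon growth and regeneration, by theme only. The link is that of a list and need not hold for each gene in it. Genes of that theme list are not taken as partners of these proteins. All lists were chosen with earlier results of these data known. The calls and p-values of list genes are therefore a description. The lists held 190 genes, 160 with a row and 158 tested. Of these, 13 rose, 4 fell and 141 did not pass in the MeHg lineage (limma, Benjamini-Hochberg adjusted p under 0.05), against 5.47% higher and 3.5% lower over all genes. Without control libraries 5 and 7 the number of lower genes was 9, with 2 to 7 when single libraries were left out. Over all genes the fit without control libraries 5 and 7 called 716 higher and 915 lower of 19697 tested. The main fit called 1112 higher and 712 lower of 20320.

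Of 47 tested genes of axon growth and regeneration 8 rose (17.0%) and 1 fell (2.13%), against 5.47% and 3.5% over all genes. The genes that rose were the tubulin genes tubb5, tuba1b, tuba1c and zgc:123298, with gpm6ba, cntn1b, crmp1 and dpysl3, while klf6a fell. The call of tuba1b was near the threshold (limma adjusted p = 0.0494), and its values overlapped between the lineages. The median log2 difference of the list was 0.25, against 0.02 over all genes. Without control libraries 5 and 7, 6 rose and 3 fell, in a fit that called 716 genes higher and 915 lower of 19697. Summed levels of the 14 ganglion cell markers with a row, of 16 listed, were 345 to 481 FPKM in the MeHg libraries and 405 to 733 FPKM in the control libraries, with none called higher and 1 lower. Of these sums thy1 alone made up 392 FPKM in control library 7 and 175 FPKM in control library 5. The other 13 markers summed to 309 to 466 FPKM in the MeHg libraries and 322 to 473 FPKM in the control libraries. The beta tubulin gene tubb5 was at 50.1 ± 11.9 FPKM in the MeHg lineage (SD, n = 6) and 12.5 ± 5.14 FPKM in the control lineage (SD, n = 5; limma adjusted p = 0.000266). The axonal adhesion molecule gene cntn1b rose by 1.47 on the log2 scale (limma adjusted p = 0.00102), and gpm6ba, a membrane glycoprotein gene of the M6 type, by 1.38 (limma adjusted p = 0.000852). The gene basp1, named here after its values were seen for its kinship with the family, encodes a brain-enriched membrane protein grouped with MARCKS and GAP-43. It was at 77.6 ± 9.44 FPKM in the MeHg lineage (SD, n = 6) and 52.6 ± 13.6 FPKM in the control lineage (SD, n = 5), and did not pass (log2 difference 0.58, limma adjusted p = 0.0613). It passed in 2 of 21 alternative fits, without control library 4 (adjusted p = 0.0364) and without control library 8 (0.0495). The range was 0.0364 to 0.363 over all of them. Without control libraries 5 and 7 the log2 difference of basp1 was smaller, at 0.38 (limma adjusted p = 0.188).

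Kinases of the protein kinase C family phosphorylate the effector domain and GAP-43, though not each isoform need do so. None of 12 tested genes of that family passed in either direction with limma, and 4 had an unadjusted p under 0.05. Over all genes 8.98% passed, and 4898 of 20320 had an unadjusted p under 0.05. Little can therefore be read from such counts in lists this short. The smallest p belonged to prkcq (log2 difference -0.82, limma adjusted p = 0.0756), prkca (0.51, 0.106) and prkcdb (-0.87, 0.107). The level of prkcq was low, with means of 0.625 FPKM in the MeHg lineage and 1.99 FPKM in the control lineage. With a mean of at least 2 FPKM required, prkcq was not tested. Without control libraries 5 and 7, 2 protein kinase C genes were called lower, in a fit that called 915 of 19697 genes lower. Among them was prkcq (limma adjusted p = 0.00942, with a range of 0.00444 to 0.366 over its 20 alternative fits). Without control library 7 alone 2 were lower as well, prkcq again among them (adjusted p = 0.00444). Without MeHg library 3, 1 was lower, prkcdb (adjusted p = 0.0448, with a range of 0.0448 to 0.496), and with trimmed mean scaling 1 was lower. Among 9 tested genes of calmodulin, small calmodulin-binding proteins and their relatives none passed with limma either, and 2 had an unadjusted p under 0.05. Without control libraries 5 and 7, 1 was called lower. The smallest p was that of pcp4l1, at 153 ± 29.3 FPKM in the MeHg lineage (SD, n = 6) and 99.0 ± 27.5 FPKM in the control lineage (SD, n = 5; limma adjusted p = 0.0796). The next belonged to ENSDARG00000031427 and ENSDARG00000034187, both of which the table calls calm3a (log2 differences 0.36 and 0.28, the second 0.11 without control library 7). None of 6 genes of calcineurin, the calcium-dependent phosphatase that acts on GAP-43, passed with limma, and 1 had an unadjusted p under 0.05, with log2 differences of 0.53 for ppp3r1a, 0.23 for ppp3ccb and 0.40 for ppp3cb, which was 0.19 without control library 7.

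The lipid anchoring enzymes attach myristoyl or palmitoyl groups, remove palmitoyl groups or, as the methionine aminopeptidases do, free the protein's first residue for myristoylation. Among 18 of them tested, 1 rose (5.56%) and none fell, against 5.47% and 3.5% over all genes. The palmitoyltransferase gene zdhhc2 was at 35.6 ± 3.92 FPKM in the MeHg lineage (SD, n = 6) and 14.6 ± 4.29 FPKM in the control lineage (SD, n = 5; limma adjusted p = 0.000821). The related zdhhc5b and zdhhc5a had log2 differences of 0.44 and 0.50 and did not pass (limma adjusted p = 0.135 and 0.168). In the table of scaled fragment numbers zdhhc5a passed, with a log2 difference of 0.55 (adjusted p = 0.0123, with a range of 0.0123 to 0.615 over its alternative fits).

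Of 31 tested genes that make, modify or cleave PIP2 and its relatives 3 rose (9.68%) and 1 fell (3.23%). Over all genes these shares were 5.47% and 3.5%. A pair of kinase paralogs in the list moved apart. The PIP2-making kinase gene pip5k1bb was at 29.7 ± 2.69 FPKM in the MeHg lineage (SD, n = 6) and 10.9 ± 2.22 FPKM in the control lineage (SD, n = 5; limma adjusted p = 7.9e-05). Its paralog pip5k1ba was at 14.4 ± 5.33 FPKM in the MeHg lineage and 51.6 ± 25.4 FPKM in the control lineage (limma adjusted p = 0.00287). Neither gene had overlapping values between the lineages, as was so for 7.52% of all genes tested, counting both directions. The phospholipase C gene plch2a was at 163 ± 65.5 FPKM in the MeHg lineage and 41.4 ± 14.3 FPKM in the control lineage (limma adjusted p = 0.00116). Also called higher was pi4kb, near the threshold (log2 difference 0.54, limma adjusted p = 0.0495). Without control libraries 5 and 7, 2 genes of the list rose and 1 fell, in a fit that called 716 genes higher and 915 lower of 19697.

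Of 35 actin and cortical cytoskeleton genes 1 rose and 2 fell, shares of 2.86% and 5.71%, against 5.47% and 3.5% over all genes. The actin nucleation promoter gene waslb was at 15.3 ± 4.30 FPKM in the MeHg lineage (SD, n = 6) and 43.5 ± 11.5 FPKM in the control lineage (SD, n = 5; limma adjusted p = 0.0011). The rise of wasf3a, of the WAVE family, was 0.79 on the log2 scale (limma adjusted p = 0.028), but 0.51 without control libraries 5 and 7, where it did not pass (adjusted p = 0.107), and the call was lost in 7 of 21 alternative fits (0.0117 to 0.36). The call of capza1a, a capping protein subunit gene, with a log2 difference of -0.42 (limma adjusted p = 0.0494), was lost in 15 of 21 alternative fits, with adjusted p between 0.0373 and 0.484.

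**Figure D5:**
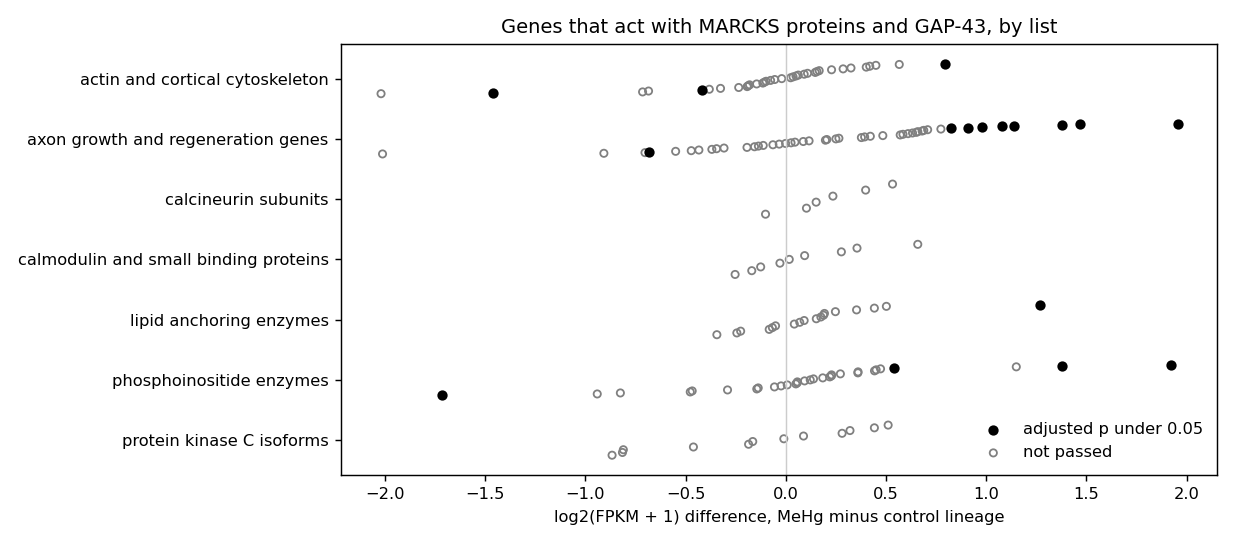
Differences in log2(FPKM + 1), MeHg minus control lineage, of the tested genes in the 7 lists, one circle per gene, filled where the limma adjusted p was under 0.05. Filled circles are most numerous among axon growth genes (8 higher and 1 lower of 47 tested), the longest list. The protein kinase C, calmodulin and calcineurin lists have none, but hold only 12, 9 and 6 tested genes. Over all genes 8.98% were called.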

How the data were processed

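Retinal total RNA was sequenced as paired reads of TruSeq libraries, per the labels' protocols. Per the submitters' processing notes, the tools were TopHat and Cuffnorm on build Zv9, after CASAVA 1.8.2, FastQC and cutadapt. Neither the strand setting nor the annotation is given in the sources used here. The deposited values are FPKM, as Cuffnorm writes them, and a companion deposited signal, fragment numbers divided by a library factor. Left out was 1 value column per file that carries no name, and control replicate 1 was not analysed here.

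Fragment numbers were recovered by dividing the signal by its most frequent positive value in a library; 98.4% to 98.9% of low values were then within 0.01 of a whole number. Up to 0.14% of values were below 1 fragment, and no count test was run. Genes averaging 0.5 FPKM or more were fitted with limma 3.58.1 in R 4.3.3 on log2(FPKM + 1), with trended eBayes and Benjamini-Hochberg adjustment, after a check on simulated data. The pseudocount shrinks differences of low genes. Intervals cover counting error only. The paralogs may share fragments where their sequences match.

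The members and lists were chosen with earlier results of these data known. Genes named are the members, the 3 smallest p per list and the 5 profiles nearest to marcksl1a. Added to these were basp1 and the other called genes of the axon growth list and of the list around PIP2. The same rule for gap43 gave nothing. Alternatives covered pseudocounts, filters, tables, scaling, variance trend, a replicate block and libraries left out.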

Additional observations from a re-analysis of the deposited data

Results flagged for a closer look

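Of 26 sets of values examined (each member's FPKM, scaled fragment number and their quotient, and the paralog ratio, in each lineage), 1 held a library far from the others, where chance gives about 1 in 20. In control library 3 the FPKM of marcksb per scaled fragment was 2.05 times the median over all libraries, while the other 4 control libraries lay between 0.916 and 1 times. Fragments behind that library's marcksb level numbered 128, with 95% limits of 107 and 152. The quotient follows the assigned transcript length rather than the level, and why it differed there was not tested.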

How the results depend on the processing

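The log2 difference of marcksl1a lay between 1.95 and 2.13 in all 21 alternative fits, and that of marcksl1b between 1.097 and 1.36. With each library left out in turn the ranges were 1.96 to 2.13 for marcksl1a, 1.16 to 1.36 for marcksl1b, 0.07 to 0.29 for marcksa and -0.49 to 0.23 for marcksb, the direction of which was not stable. With a mean of at least 2 FPKM required, marcksa was not tested. Over all genes 1824 were called, and 1177 to 1905 with single libraries left out, the fewest without control library 5. In the lists 13 genes rose and 4 fell, and 9 to 15 rose and 2 to 7 fell with single libraries left out; 9 fell without control libraries 5 and 7, 7 without control library 7 alone, and 2 without control library 5 or 8 or MeHg library 5, 6 or 7. Without control libraries 5 and 7, 716 genes were called higher and 915 lower over all genes, in place of 1112 and 712. Samples with the same number in both lineages (3, 4, 5 and 7) did not deviate together (correlations of -0.20, -0.23, -0.01 and -0.13). Other differences among libraries enter these correlations too, so they cannot show whether samples of one number were handled together. With the replicate block, on 8 libraries, 199 genes were called, 1 list gene rose and 1 fell, the difference of marcksl1a was 2.05 and that of marcksl1b 1.27 (there not past the all-gene threshold). The values of marcksa rest on at most 29 fragments per library.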
